A study of Mus musculus with 9 samples.

Results

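The genes described here are 40 genes of neurons, among them classical targets of the repressor REST and the Rest gene itself, named by symbol and matched to Ensembl gene IDs. All 40 were found among the 37990 genes listed, and 37 of them had enough reads to be tested, among 14465 genes in all. The study sequenced total RNA of E14 mouse embryonic stem cells, a line grown here on gelatin in serum with leukaemia inhibitory factor. The cells had been transduced with lentiviral pLKO.1 vectors in the presence of Polybrene and selected with puromycin, so each culture is a selected pool carrying a stable short hairpin RNA. The groups are a Fam60a knockdown, a Sin3a knockdown and a control with a scrambled hairpin that has no target, each with 3 libraries that the labels call biological replicates. All 3 groups therefore share the vector, the transduction and the drug selection. The libraries titled T2SC were taken as the scrambled control by elimination. The titles name no second hairpin per target, so what a hairpin does beyond its target was not tested.

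REST is a zinc finger protein that binds a long DNA element called RE1 (or NRSE) and represses neuronal genes in stem cells and in non-neuronal tissue. Its N terminus recruits SIN3A, the scaffold of a histone deacetylase complex, and its C terminus recruits RCOR1 (CoREST) with further histone-modifying enzymes. FAM60A, named Sinhcaf in the GENCODE annotation, is a subunit of the SIN3A complex. Embryonic stem cells hold high levels of REST, and neuronal REST targets are known to be low there.

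The RE1 element has a left and a right arm, and the sequences below are shown because they hold both arms in genes whose values are described further on. Searched on both strands, the joined arms, AGCACC and GGACAG with any 2 bases between them, stood in 17 of 32851 RefSeq promoter windows (0.0518%), which run from 250 bases before to 50 bases after a start. Of the 40 genes, 25 had such a window, and Gria2 was the 1 gene of these with the joined arms. In GENCODE M21 transcripts the joined arms stood in 64 of 21877 protein-coding genes (0.293%) and in 3 of the 40, namely Grin1, Syp and Syt4. Longer arms set 8 bases apart, a left arm TTCAGCACC and a right arm of GGACAG followed by CGCC, stood in the transcripts of 3 protein-coding genes (0.0137%), of which 2 were Scg3 and Unc13a. That spacing was chosen after matches had been seen; alone, the longer left arm stood in 6.03% and the longer right arm in 1.09% of protein-coding genes. The shorter arms lie within the longer ones. A match is a description of letters, and binding was not measured. The 30-base windows follow, with the fixed letters of each motif in capitals.
Gria2: tcgattttAGCACCgcGGACAGcgctttgg
Grin1: tacgcttcAGCACCtcGGACAGcacccgcc
Syp: cgcgctccAGCACCgtGGACAGagcccggc
Unc13a: gcTTCAGCACCgggggcgcGGACAGCGCCt
Scg3: cTTCAGCACCcgcggggcGGACAGCGCCta

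The Gria2 window is chr3:80802984-80803013 (GRCm38.p6, plus strand, gene on the minus strand), upstream of the start in the RefSeq promoter window. The Grin1 window is chr2:25319010-25319039 on the minus strand, in the 5′ UTR part of exon 1 (GRCm38, GENCODE M21, as for the next 3). The Syp window is chrX:7638732-7638761 on the plus strand, in coding sequence of exon 1. The Unc13a window is chr8:71671725-71671754 on the plus strand, opposite to the gene, in the 5′ UTR part of exon 1. The Scg3 window is chr9:75683941-75683970 on the minus strand, in the 5′ UTR part of exon 1. Of these genes Grin1 fell and Unc13a rose in the Sin3a knockdown. Gria2 had 0 reads in all 9 libraries, Scg3 had 4 reads over the Fam60a knockdown libraries, 8 over the Sin3a knockdown and 17 over the controls, and the values of Grin1, Syp and Unc13a are given below.

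The libraries held between 2607872 and 7674887 reads, and 3 counts corresponded to 0.385 to 1.22 CPM (counts relative to library size, with TMM factors). Fam60a measured 5.59, 6.54 and 5.06 CPM in its own knockdown, 13.9, 14.3 and 18.7 CPM in the Sin3a knockdown and 13.4, 14.0 and 13.1 CPM in the controls. Sin3a measured 227, 216 and 207 CPM in the Fam60a knockdown, 131, 136 and 110 CPM in its own knockdown and 311, 281 and 268 CPM in the controls. Each hairpin's target was thus lowest in its own knockdown, at 42.5% (Fam60a) and 43.8% (Sin3a) of the control mean. Sin3a was also lower in the Fam60a knockdown, at 75.6% of the control mean, with all 3 libraries below all controls. Of the 2 targeted genes, 1 was called lower there by edgeR, and 2 by DESeq2 or without Sin3a knockdown replicate 3. Fam60a stood at 116% of the control mean in the Sin3a knockdown. Sin3a knockdown replicate 3 stood apart: it was the shallowest library, had 90 reads of the mitochondrial genome against 6268 to 7118 in the others, and had a mean correlation of 0.885 with its group, against 0.935 to 0.981 for the others. Relative to its 2 companion libraries genes poor in GC (at most 41.6%) stood at a median of -1.23 and genes rich in GC (at least 58.1%) at 0.79 on the log2 scale, so calls of the 37 genes that change without it are named below. The cells carried stem cell transcripts: Pou5f1 measured 122 to 141, 131 to 316 and 133 to 141 CPM in the Fam60a knockdown, Sin3a knockdown and control libraries, and the 16 pluripotency markers summed to between 2582 and 3169 CPM. Rbfox3, which marks mature neurons, had 8, 6 and 39 reads over the 3 libraries of the same groups. A sum over 10 neuron markers was 97.1 to 135 CPM, 76.0 to 110 CPM and 206 to 251 CPM in the Fam60a knockdown, Sin3a knockdown and control groups. The markers were Rbfox3, Map2, Mapt, Dcx, Syt1, Slc17a6, Slc17a7, Gad1, Gad2 and Slc32a1. Most of the sum was Mapt alone, with means of 87.7, 65.6 and 170 CPM in the same order. Dcx (15, 13 and 1 reads) and Slc17a6 (6, 9 and 0 reads) were higher in the knockdowns. Gad2 had 7, 1 and 3 reads, and the rest had lower means in both knockdowns. In bulk RNA, fewer cells of a type and less RNA per cell cannot be told apart, and this holds for every result below.

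Per length, the 40 genes spanned a wide range in the controls. Tubb3, the neuronal beta-tubulin, had the highest mean, 48.1 CPM per kilobase of exon, followed by Rest at 46.7, the microtubule regulator Stmn2 at 29.5 and the intermediate filament gene Ina at 24.2 CPM per kilobase. At the other end were St8sia2 at 0.0542 and Snap25 at 0.0233 CPM per kilobase, and Gria2 had no read. Snap25, a SNARE protein of vesicle fusion, had 1, 1 and 3 reads over the Fam60a knockdown, Sin3a knockdown and control libraries. Together with Gria2, a glutamate receptor subunit, and Scg3, a granule protein, it was left out of the tests by the filter. For a gene with 0 reads in all 9 libraries the floor of 3 counts allows up to 0.0546 CPM, by counting error alone.

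**Figure D1:**
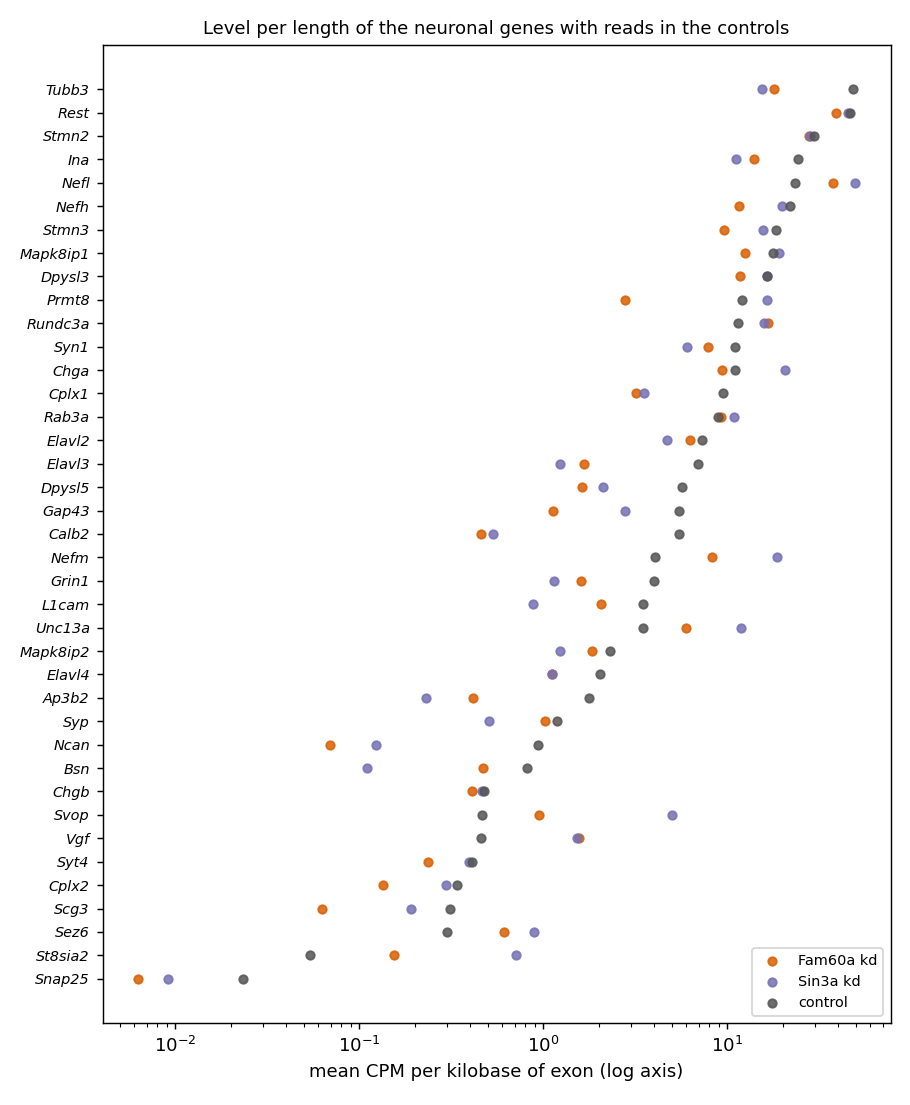
Mean CPM per kilobase of exon on a log axis for each neuronal gene with reads in the controls, in the Fam60a knockdown, Sin3a knockdown and control libraries (n = 3 each, no error bars), ordered by the control level. Tubb3 is highest in the controls at 48.1 and Snap25 lowest at 0.0233, and knockdown points lie on either side of the control points.

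In the Fam60a knockdown, 8 of the 37 tested genes fell and 0 rose, by edgeR's quasi-likelihood test with a Benjamini-Hochberg adjusted p under 0.05 over all genes. Among all genes tested 2.92% were called, 1.49% higher and 1.44% lower, against 21.6% of the neuronal genes. The 37 genes were chosen with earlier results of these data known, so the higher share is not read as a test of them. The 8 are Elavl3, Tubb3, Dpysl5, Cplx1, Ap3b2, Ncan, Prmt8 and Calb2. Over the 37 genes the median log2 fold change was -0.51, against -0.02 over all genes, and 28 lay below 0. An unadjusted p under 0.05 was reached by 22 of them, against 15.7% of all genes. In 20 of the 37 all 3 Fam60a knockdown libraries lay below all 3 controls, against 18.2% of all genes, and in 3 they lay above, against 16.2%. With the replicate number as a block, 12 genes were called, 2 higher and 10 lower, against a background of 6.13%. Without Sin3a knockdown replicate 3, 21 were called, 3 higher and 18 lower, against 16.9%. The 13 genes added by leaving out that library were Rest, Elavl4, Ina, Gap43, Stmn3, Nefh, Bsn, Unc13a, Syn1, Vgf, Grin1, Mapk8ip1 and Rundc3a. DESeq2 size factors or no filter on low counts gave 8 again, against 2.90% and 1.71%. Fitted on the 6 libraries of these 2 groups alone, 18 were called against 12.8%, and with the DESeq2 Wald test 14 (1 higher and 13 lower) against 8.16%. With a GC correction 9 were called against 5.03%, and with that correction and the block 18 against 11.7%.

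In the Sin3a knockdown, 14 of the 37 genes passed the same test, 3 higher (Svop, Unc13a and St8sia2) and 11 lower, a share of 37.8%. Of all genes 10.2% were called, 3.91% higher and 6.28% lower. The share of lower genes among the 37 was above that, with the same limit of choice, and that of higher genes rests on 3 genes. The 11 lower ones are Elavl3, Tubb3, Dpysl5, Ina, Bsn, Cplx1, Ap3b2, Grin1, L1cam, Ncan and Calb2. The median log2 fold change was -0.28, against -0.01 over all genes, 24 of the 37 lay below 0, and 21 had an unadjusted p under 0.05, against 25.9% of all genes. In 13 genes all Sin3a knockdown libraries lay below all controls, against 18.5% of all genes, and in 8 they lay above, against 14.7%. With the replicate block 17 were called, 5 higher and 12 lower, against 15.0% of all genes. Without Sin3a knockdown replicate 3, 18 were called, 4 higher and 14 lower, against 24.5%, with Gap43, Nefh, Sez6 and Mapk8ip2 added. DESeq2 size factors or no filter gave 14, against 10.3% and 5.83%. Fitted on the 6 libraries alone 13 were called against 5.25%, and with DESeq2 16 (5 higher and 11 lower) against 17.3%. With a GC correction 14 were called against 14.6%, and with that correction and the block 20 against 23.0%. Both knockdowns were set against the same 3 control libraries, so their values are given side by side below and their likeness is not read as a result.

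**Figure D2:**
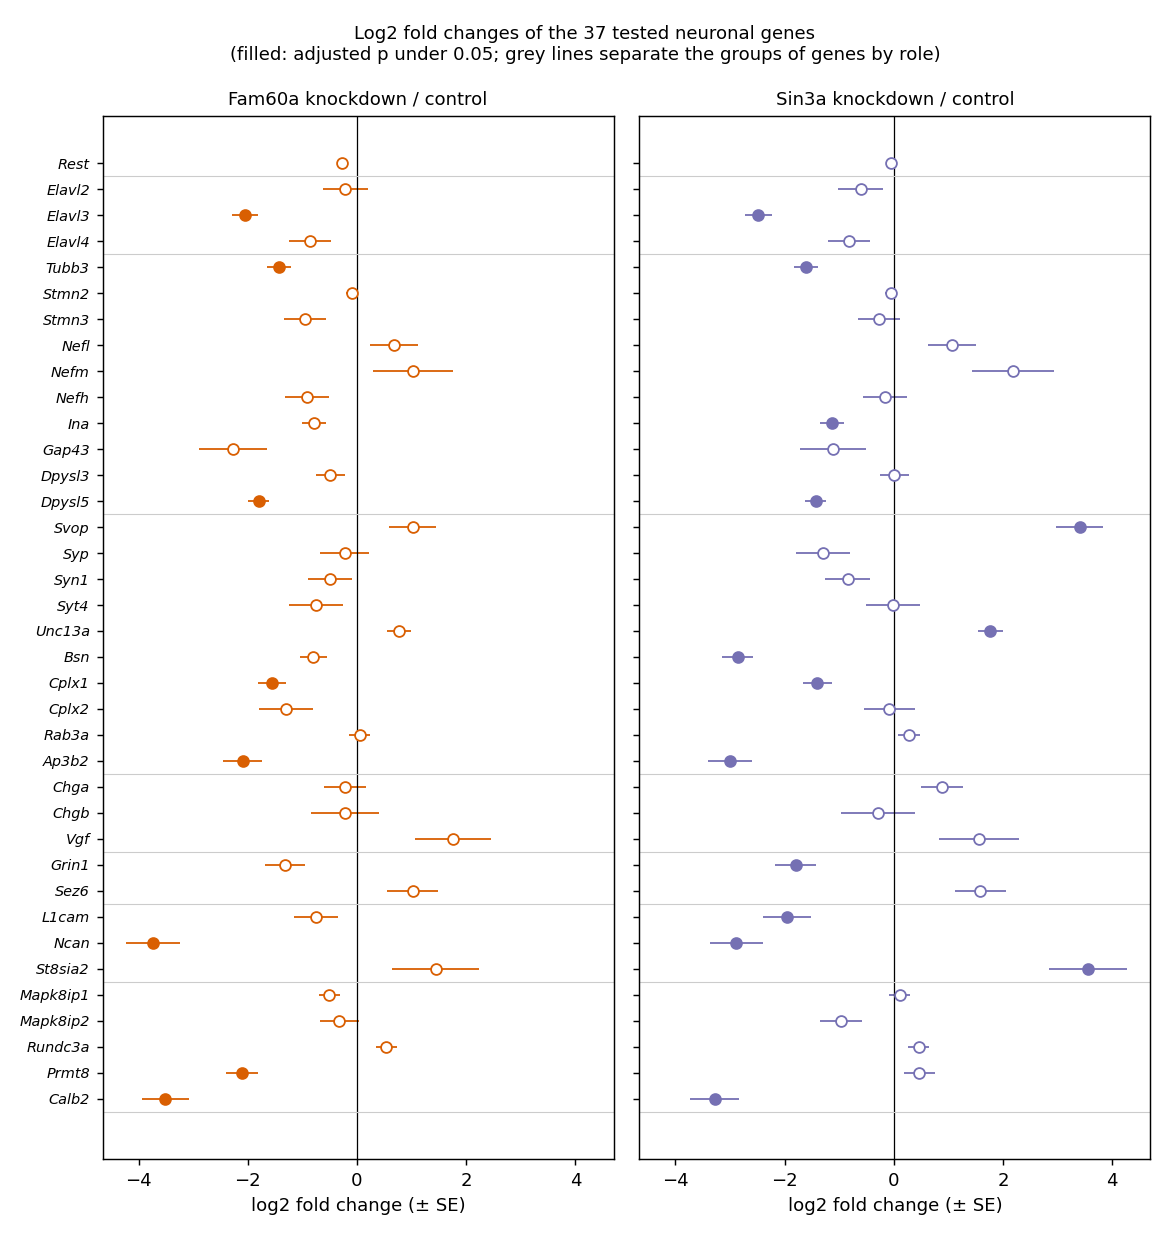
Log2 fold change over control with its SE for the 37 tested neuronal genes, in the Fam60a knockdown (left) and the Sin3a knockdown (right), grouped by role; filled points passed edgeR's test at an adjusted p under 0.05. The 8 filled points on the left all lie below 0, and on the right 11 lie below and 3 above 0.

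Rest itself (ENSMUSG00000029249, GRCm38 chr5:77265491-77286432, plus strand) was among the most abundant of the 40. It measured 299, 272 and 270 CPM in the Fam60a knockdown, 323, 339 and 316 CPM in the Sin3a knockdown and 353, 327 and 331 CPM in the controls. All Fam60a knockdown values lay below all others, while the Sin3a knockdown and control values overlapped. The log2 fold change was -0.27 ± 0.09 (SE) in the Fam60a knockdown (edgeR, adjusted p = 0.178) and -0.05 ± 0.09 in the Sin3a knockdown (adjusted p = 0.773), so neither passed the test. Without Sin3a knockdown replicate 3 the Fam60a value was -0.26 ± 0.06 with an adjusted p of 0.0181. DESeq2 on all 9 libraries also called Rest lower in the Fam60a knockdown, at -0.27. Of 16 alternatives, 3 called Rest there and 0 in the Sin3a knockdown.

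The Elavl genes encode RNA-binding proteins that stabilise and splice neuronal transcripts, and Elavl3 (GRCm38 chr9:22015005-22052023, minus strand) was the member that fell. Elavl3 measured 11.2, 14.8 and 8.38 CPM in the Fam60a knockdown, 8.23, 9.47 and 7.72 CPM in the Sin3a knockdown and 44.5, 49.4 and 49.0 CPM in the controls. Neither knockdown overlapped the controls. The log2 fold change was -2.05 ± 0.23 (adjusted p = 0.00793) in the Fam60a knockdown and -2.48 ± 0.24 (adjusted p = 0.00168) in the Sin3a knockdown. Elavl2 ranged from 49.6 to 57.1 CPM, 12.2 to 54.4 CPM and 53.0 to 68.4 CPM in the Fam60a knockdown, Sin3a knockdown and control libraries and did not pass (log2 fold changes -0.22 ± 0.41 and -0.61 ± 0.42). Its 12.2 CPM is Sin3a knockdown replicate 3. Elavl4 measured 5.14 to 7.44, 2.44 to 8.91 and 11 to 11.1 CPM in the same groups and did not pass either (log2 fold changes -0.86 ± 0.38 and -0.82 ± 0.39). Elavl4 passed in the Fam60a knockdown when Sin3a knockdown replicate 3 was left out (adjusted p = 0.0311).

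Of 10 genes of the neuronal cytoskeleton and growth cone, 2 fell in the Fam60a knockdown, 3 fell in the Sin3a knockdown and 0 rose. Tubb3 (GRCm38 chr8:123411424-123422015, plus strand) measured 39.3, 30.4 and 30.4 CPM in the Fam60a knockdown, 37.7, 27.1 and 22.3 CPM in the Sin3a knockdown and 95.6, 77.9 and 96.1 CPM in the controls. All knockdown values lay under all controls. Its log2 fold change was -1.43 ± 0.21 (adjusted p = 0.0129) in the Fam60a knockdown and -1.61 ± 0.22 (adjusted p = 0.00399) in the Sin3a knockdown. Dpysl5 (GRCm38 chr5:30711564-30799375, plus strand), which encodes a collapsin response mediator protein of axon guidance, measured 13.3, 12.8 and 9.96 CPM in the Fam60a knockdown, 13.9, 15.6 and 17.5 CPM in the Sin3a knockdown and 40.7, 41.8 and 43.7 CPM in the controls. It fell without overlap in both, with log2 fold changes of -1.80 ± 0.19 (adjusted p = 0.00793) in the Fam60a knockdown and -1.43 ± 0.19 (adjusted p = 0.00394) in the Sin3a knockdown.

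Ina (GRCm38 chr19:47014698-47025327, plus strand), the alpha-internexin gene, measured 44.1, 43.9 and 48.1 CPM in the Fam60a knockdown, 28.2, 29.0 and 51.6 CPM in the Sin3a knockdown and 76.2, 78.1 and 80.8 CPM in the controls. No knockdown library reached the controls. Ina fell in the Sin3a knockdown (log2 fold change -1.13 ± 0.23, adjusted p = 0.0167) and did not pass in the Fam60a knockdown (-0.79 ± 0.22, adjusted p = 0.101). There it passed once Sin3a knockdown replicate 3 was left out (adjusted p = 0.000821). Gap43, a growth cone protein of axon growth, measured 2.87, 0.898 and 1.42 CPM in the Fam60a knockdown, 3.05, 1.49 and 8.12 CPM in the Sin3a knockdown and 8.47, 5.93 and 10.7 CPM in the controls. The Fam60a knockdown libraries lay under the controls, and Sin3a knockdown replicate 3 overlapped them. Gap43's log2 fold change in the Fam60a knockdown was -2.27 ± 0.62 (adjusted p = 0.0929), and with the replicate block it was -2.29 ± 0.46 (adjusted p = 0.04). In the Sin3a knockdown it was -1.11, with an adjusted p of 0.288, and -1.85 ± 0.51 without replicate 3 (adjusted p = 0.0282).

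The other 6 cytoskeletal genes did not pass in either knockdown, and their values differed in sign. Stmn2 lay at 144 to 165, 155 to 163 and 156 to 182 CPM in the Fam60a knockdown, Sin3a knockdown and control libraries, with log2 fold changes of -0.09 ± 0.11 and -0.06 ± 0.11. Stmn3, a related tubulin-binding phosphoprotein, lay at 7.27 to 13.9, 11 to 28.8 and 18.4 to 23.1 CPM, and Dpysl3, a relative of Dpysl5, at 53.6 to 95.5, 69.5 to 131 and 98.9 to 117 CPM. Nefh, the heavy neurofilament subunit, lay at 35.7 to 53.0, 44.6 to 142 and 72.9 to 103 CPM, where 142 CPM is Sin3a knockdown replicate 3. Without that library Stmn3 passed in the Fam60a knockdown (-0.94 ± 0.24, adjusted p = 0.0279) and Nefh passed in both, with log2 fold changes of -0.91 ± 0.17 (adjusted p = 0.00839) in the Fam60a knockdown and -0.85 ± 0.19 (adjusted p = 0.0145) in the Sin3a knockdown.

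Nefl and Nefm, the light and medium neurofilament subunits, had higher means in both knockdowns than in the controls, whereas those of Nefh were lower. Their genes overlap on opposite strands (GRCm38 chr14:68083863-68089095, plus strand, and chr14:68082590-68124846, minus strand), and the libraries are stranded. Nefl measured 113, 99.7 and 166 CPM in the Fam60a knockdown, 124, 94.0 and 282 CPM in the Sin3a knockdown and 62.2, 54.6 and 120 CPM in the controls. Nefm measured 38.1, 33.7 and 71.9 CPM in the Fam60a knockdown, 57.5, 41.6 and 226 CPM in the Sin3a knockdown and 12.5, 12.1 and 45.7 CPM in the controls. In every group replicate 3 was the highest, and the groups overlapped through control replicate 3. Without a block neither gene passed: Nefm's log2 fold change was 1.03 ± 0.73 (adjusted p = 0.628) in the Fam60a knockdown and 2.18 ± 0.75 (adjusted p = 0.104) in the Sin3a knockdown. Within same-numbered pairs Nefm was higher in 3 of 3, by 1.58, 1.45 and 0.65 in the Fam60a knockdown and by 2.17, 1.75 and 2.30 in the Sin3a knockdown, on the log2 scale. With the replicate block Nefm passed in both, at 1.26 ± 0.27 (adjusted p = 0.0449) in the Fam60a knockdown and 2.10 ± 0.27 (adjusted p = 0.00665) in the Sin3a knockdown. Nefl passed with the block in the Sin3a knockdown (1.01 ± 0.17, adjusted p = 0.0119) and not in the Fam60a knockdown (0.74 ± 0.17, adjusted p = 0.0508). Without Sin3a knockdown replicate 3 and without the block, Nefm's Sin3a value was 1.08 ± 0.61 (adjusted p = 0.24).

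Gata6 and Sox17, markers of primitive endoderm, the extra-embryonic lineage that stem cell cultures can hold, were also highest in replicate 3 of each group. Of the 14 markers of that lineage examined, replicate 3 was the highest library for 14 in the Fam60a knockdown, 11 in the Sin3a knockdown and 14 in the controls. Gata6, a GATA factor of that lineage, measured 195, 171 and 211 CPM in the Fam60a knockdown, 208, 195 and 221 CPM in the Sin3a knockdown and 57.0, 61.0 and 137 CPM in the controls. Sox17, a SOX factor, measured 86.1, 66.2 and 116 CPM in the Fam60a knockdown, 88.7, 63.3 and 186 CPM in the Sin3a knockdown and 19.2, 21.1 and 73.9 CPM in the controls. The 14 endoderm markers summed to 3472 to 5249 CPM, 3985 to 8348 CPM and 1715 to 4158 CPM in the Fam60a knockdown, Sin3a knockdown and control libraries. Of the 14, all were tested, and 0 passed in the Fam60a knockdown by edgeR without a block (3 with an unadjusted p under 0.05, 2 by DESeq2), while 1, Gata6, rose in the Sin3a knockdown. Without the block 2.92% and 10.2% of all genes were called in the Fam60a and Sin3a knockdowns. With the replicate block 4 rose in the Fam60a knockdown and 11 rose in the Sin3a knockdown. These shares were 28.6% and 78.6%, against 6.13% and 15.0% of all genes. Without Sin3a knockdown replicate 3 and without the block 1 rose in each, a share of 7.14% against 16.9% and 24.5% of all genes. The part of such cells in the neurofilament values was not tested.

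**Figure D3:**
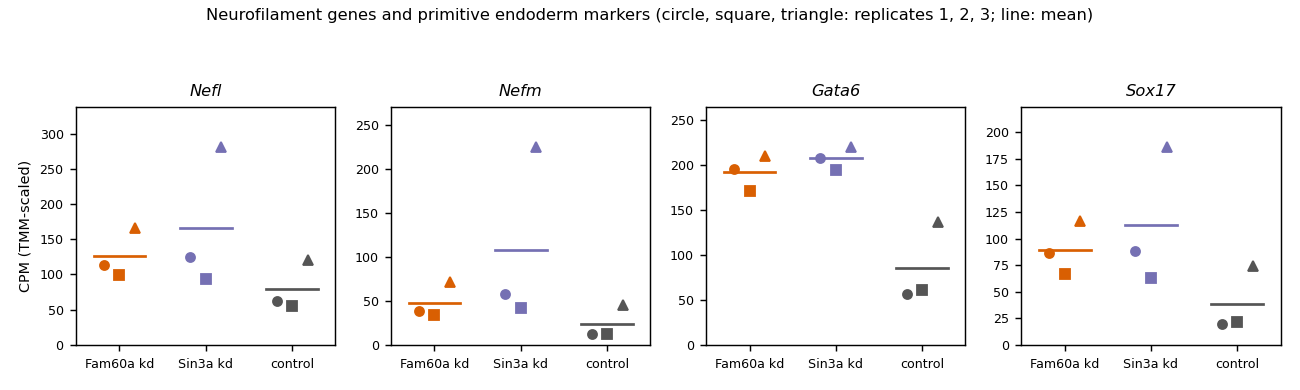
TMM-scaled CPM in each library for the neurofilament genes Nefl and Nefm and the primitive endoderm markers Gata6 and Sox17; circles, squares and triangles are replicates 1, 2 and 3, and lines are means of 3 libraries. Replicate 3 is the highest library of each group in all 4 panels, and the controls reach 45.7 CPM for Nefm in replicate 3.

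Of the 10 tested genes of synaptic vesicles and transmitter release, 2 fell in the Fam60a knockdown, whereas 2 rose and 3 fell in the Sin3a knockdown. That was 20.0% and 50.0% of the 10, against 2.92% and 10.2% of all genes. Cplx1 (GRCm38 chr5:108518554-108550024, minus strand), the complexin gene for a clamp of vesicle fusion, measured 8.16, 6.42 and 6.48 CPM in the Fam60a knockdown, 9.91, 6.69 and 6.50 CPM in the Sin3a knockdown and 24.6, 19.5 and 17.9 CPM in the controls. Its log2 fold change was -1.56 ± 0.26 (adjusted p = 0.0192) in the Fam60a knockdown and -1.40 ± 0.27 (adjusted p = 0.013) in the Sin3a knockdown. Its relative Cplx2 stayed at or below 2.29 CPM in every library and did not pass. Ap3b2 (GRCm38 chr7:81460399-81493925, minus strand), the neuronal beta subunit of the AP-3 vesicle adaptor, measured 3.02, 1.92 and 2.85 CPM in the Fam60a knockdown, 1.22, 1.11 and 2.03 CPM in the Sin3a knockdown and 10.8, 7.66 and 14.9 CPM in the controls. Ap3b2 fell in both, with log2 fold changes of -2.09 ± 0.36 (adjusted p = 0.0194) in the Fam60a knockdown and -3.00 ± 0.40 (adjusted p = 0.00381) in the Sin3a knockdown. Neither Cplx1 nor Ap3b2 had a knockdown library that reached a control.

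Svop, Unc13a and Bsn separated the knockdowns. Svop (GRCm38 chr5:114026910-114091570, minus strand), a transporter-like protein of synaptic vesicles, measured 5.14, 5.26 and 2.53 CPM in the Fam60a knockdown, 18.1, 18.2 and 32.5 CPM in the Sin3a knockdown and 2.28, 2.75 and 1.34 CPM in the controls. The Sin3a knockdown libraries lay above all others, and the Fam60a knockdown and control libraries overlapped. Svop rose in the Sin3a knockdown (log2 fold change 3.41 ± 0.43, adjusted p = 0.00332) and did not pass in the Fam60a knockdown (1.02 ± 0.43, adjusted p = 0.286). Unc13a (GRCm38 chr8:71624417-71671757, minus strand), which encodes the vesicle-priming protein Munc13-1 and holds the spaced arms printed above, measured 59.1, 88.2 and 77.5 CPM in the Fam60a knockdown, 119, 156 and 173 CPM in the Sin3a knockdown and 33.9, 52.8 and 44.8 CPM in the controls. No 2 of its groups overlapped. Unc13a rose in the Sin3a knockdown (1.77 ± 0.23, adjusted p = 0.00337). With Fam60a lowered it missed the threshold without the block (0.77 ± 0.22, adjusted p = 0.108) and passed it with the block (0.78 ± 0.12, adjusted p = 0.0201) and without Sin3a knockdown replicate 3 (0.78 ± 0.20, adjusted p = 0.0306).

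Bsn (GRCm38 chr9:108096022-108190384, minus strand), which encodes the active zone scaffold bassoon, moved the other way. It measured 7.40, 8.08 and 6.96 CPM in the Fam60a knockdown, 2.13, 1.49 and 1.62 CPM in the Sin3a knockdown and 15.0, 13.4 and 10.7 CPM in the controls, again with no overlap between groups. Bsn fell in the Sin3a knockdown (log2 fold change -2.86 ± 0.29, adjusted p = 0.00174), and in the Fam60a knockdown the value was -0.80 ± 0.25 (adjusted p = 0.13), or -0.79 ± 0.22 without Sin3a knockdown replicate 3 (adjusted p = 0.0376). Syp, the vesicle membrane protein synaptophysin whose joined arms are printed above, measured 3.32, 5.26 and 7.43 CPM in the Fam60a knockdown, 1.68, 2.6 and 3.66 CPM in the Sin3a knockdown and 3.10, 7.95 and 7.60 CPM in the controls. The groups overlapped. Syp's log2 fold change in the Sin3a knockdown was -1.30 ± 0.49 (adjusted p = 0.133), and with the replicate block -1.21 ± 0.27 (adjusted p = 0.0278). Syn1, Syt4 and Rab3a, which encode a vesicle phosphoprotein, a synaptotagmin and a vesicle GTPase, did not pass in either knockdown. Syn1 lay at 24.3 to 28.9, 6.50 to 28.5 and 32.9 to 42.7 CPM in the Fam60a knockdown, Sin3a knockdown and control libraries, and without Sin3a knockdown replicate 3 it passed in the Fam60a knockdown (-0.48 ± 0.14, adjusted p = 0.045). Rab3a averaged 20.6 ± 1.64, 24.3 ± 4.10 and 19.9 ± 1.57 CPM (SD, n = 3 each), and Syt4 did not exceed 2.17 CPM.

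The dense-core granule genes Chga, Chgb and Vgf, which encode granin cargo of neurons and endocrine cells, gave 0 calls in each knockdown with edgeR and with DESeq2, and 1 had an unadjusted p under 0.05 in each by edgeR. Of all genes edgeR called 2.92% and 10.2% in the Fam60a and Sin3a knockdowns, and 15.7% and 25.9% had an unadjusted p under 0.05. Chga measured 28.7, 33.7 and 15.2 CPM in the Fam60a knockdown, 40.9, 43.3 and 85.7 CPM in the Sin3a knockdown and 33.4, 36.1 and 21.3 CPM in the controls. Vgf measured 3.02, 6.80 and 4.11 CPM in the Fam60a knockdown, 1.68, 1.86 and 10.2 CPM in the Sin3a knockdown and 1.14, 1.30 and 1.64 CPM in the controls. For Vgf every knockdown library lay above every control, but only narrowly in the Sin3a knockdown, at 1.68 CPM in replicate 1 against 1.64 CPM in control replicate 3. Its counts were 11, 10 and 25 reads there against 7, 9 and 11 in the controls. Vgf's log2 fold change in the Fam60a knockdown was 1.76 ± 0.69 (adjusted p = 0.251), and 1.77 ± 0.38 without Sin3a knockdown replicate 3 (adjusted p = 0.014).

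Of the receptor genes, Grin1 and Sez6 could be tested. Grin1 (GRCm38 chr2:25291181-25319187, minus strand), the obligate NMDA receptor subunit with the joined arms in its 5′ UTR, measured 20.1, 18.1 and 8.54 CPM in the Fam60a knockdown, 10.1, 13.4 and 9.75 CPM in the Sin3a knockdown and 51.6, 39.2 and 25.5 CPM in the controls. No knockdown library reached a control. Grin1 fell in the Sin3a knockdown (log2 fold change -1.80 ± 0.38, adjusted p = 0.0198). The Fam60a knockdown value was -1.31 ± 0.36 (adjusted p = 0.0975), and -1.34 ± 0.24 with the replicate block (adjusted p = 0.03). Without Sin3a knockdown replicate 3 it was -1.30 ± 0.34 (adjusted p = 0.0345). Sez6, a complement-like protein of synapse formation, measured 4.08, 4.36 and 2.21 CPM, 5.34, 6.87 and 3.25 CPM, and 0.815, 2.31 and 2.09 CPM in the Fam60a knockdown, Sin3a knockdown and control groups. Its log2 fold change in the Sin3a knockdown was 1.58 ± 0.47 (adjusted p = 0.0647) and 1.78 ± 0.44 without replicate 3 (adjusted p = 0.0194).

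All 3 genes of the cell surface and matrix passed in the Sin3a knockdown, and 1 of them in the Fam60a knockdown, against 10.2% and 2.92% of all genes. L1cam (GRCm38 chrX:73853778-73896105, minus strand), an adhesion molecule of axons, measured 11.3, 25 and 9.17 CPM in the Fam60a knockdown, 6.56, 8.36 and 4.47 CPM in the Sin3a knockdown and 18.9, 32.2 and 25.9 CPM in the controls. The Sin3a knockdown lay under all other libraries, and the Fam60a knockdown overlapped the controls. L1cam fell in the Sin3a knockdown (log2 fold change -1.96 ± 0.43, adjusted p = 0.0241) and had -0.75 in the Fam60a knockdown (adjusted p = 0.443). Ncan (GRCm38 chr8:70093085-70120873, minus strand), the neurocan gene for a proteoglycan of brain matrix, measured 0.453, 0.257 and 0.791 CPM in the Fam60a knockdown, 0.915, 0.928 and 0.812 CPM in the Sin3a knockdown and 5.05, 10.6 and 4.62 CPM in the controls. These are 10 and 13 reads over the Fam60a and Sin3a knockdown libraries, against 135 over the controls, without overlap. Ncan's log2 fold change was -3.74 ± 0.50 (adjusted p = 0.0106) in the Fam60a knockdown and -2.88 ± 0.49 (adjusted p = 0.00927) in the Sin3a knockdown.

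St8sia2 (GRCm38 chr7:73939119-74013690, minus strand), a sialyltransferase that adds polysialic acid to the neural adhesion molecule NCAM, measured 0.453, 1.41 and 0.632 CPM in the Fam60a knockdown, 2.44, 4.64 and 4.47 CPM in the Sin3a knockdown and 0, 0.578 and 0.298 CPM in the controls. The counts were 18 and 52 reads over the Fam60a and Sin3a knockdown libraries and 6 over the controls. The Sin3a knockdown lay above all other libraries. It rose there (log2 fold change 3.56 ± 0.71, adjusted p = 0.0167), a value that was 4.47 without control replicate 2 (adjusted p = 0.0432). The Fam60a knockdown value was 1.44 ± 0.79 (adjusted p = 0.462).

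Among 5 genes of signalling, scaffolding and calcium binding, 2 fell in the Fam60a knockdown and 1 fell in the Sin3a knockdown. Prmt8 (GRCm38 chr6:127689011-127769472, minus strand), a membrane-bound arginine methyltransferase found mainly in brain, measured 10.3, 7.19 and 5.22 CPM in the Fam60a knockdown, 46.5, 45.5 and 43.1 CPM in the Sin3a knockdown and 41.7, 33.0 and 23.1 CPM in the controls. The Fam60a knockdown lay under all other libraries, and every Sin3a knockdown library lay above the controls. Prmt8 fell in the Fam60a knockdown (log2 fold change -2.10 ± 0.30, adjusted p = 0.0109), while the Sin3a knockdown value was 0.47 ± 0.28 (adjusted p = 0.328). Calb2 (GRCm38 chr8:110137502-110168210, minus strand), the calretinin gene for a calcium buffer of interneurons, measured 1.06, 1.03 and 0.316 CPM in the Fam60a knockdown, 1.22, 0.743 and 0.812 CPM in the Sin3a knockdown and 11.7, 9.40 and 7.30 CPM in the controls. Calb2 fell without overlap in both, with log2 fold changes of -3.51 ± 0.43 (adjusted p = 0.00929) in the Fam60a knockdown and -3.28 ± 0.44 (adjusted p = 0.00399) in the Sin3a knockdown. These rest on 17 and 14 reads over the Fam60a and Sin3a knockdown libraries, against 186 over the controls. Mapk8ip1 and Mapk8ip2, scaffolds of JNK signalling, and Rundc3a did not pass. Leaving out Sin3a knockdown replicate 3, Mapk8ip2 passed in the Sin3a knockdown (-1.49 ± 0.25, adjusted p = 0.00358) while Mapk8ip1 (-0.49 ± 0.13, adjusted p = 0.0297) and Rundc3a (0.55 ± 0.14, adjusted p = 0.0263) passed in the Fam60a knockdown.

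**Figure D4:**
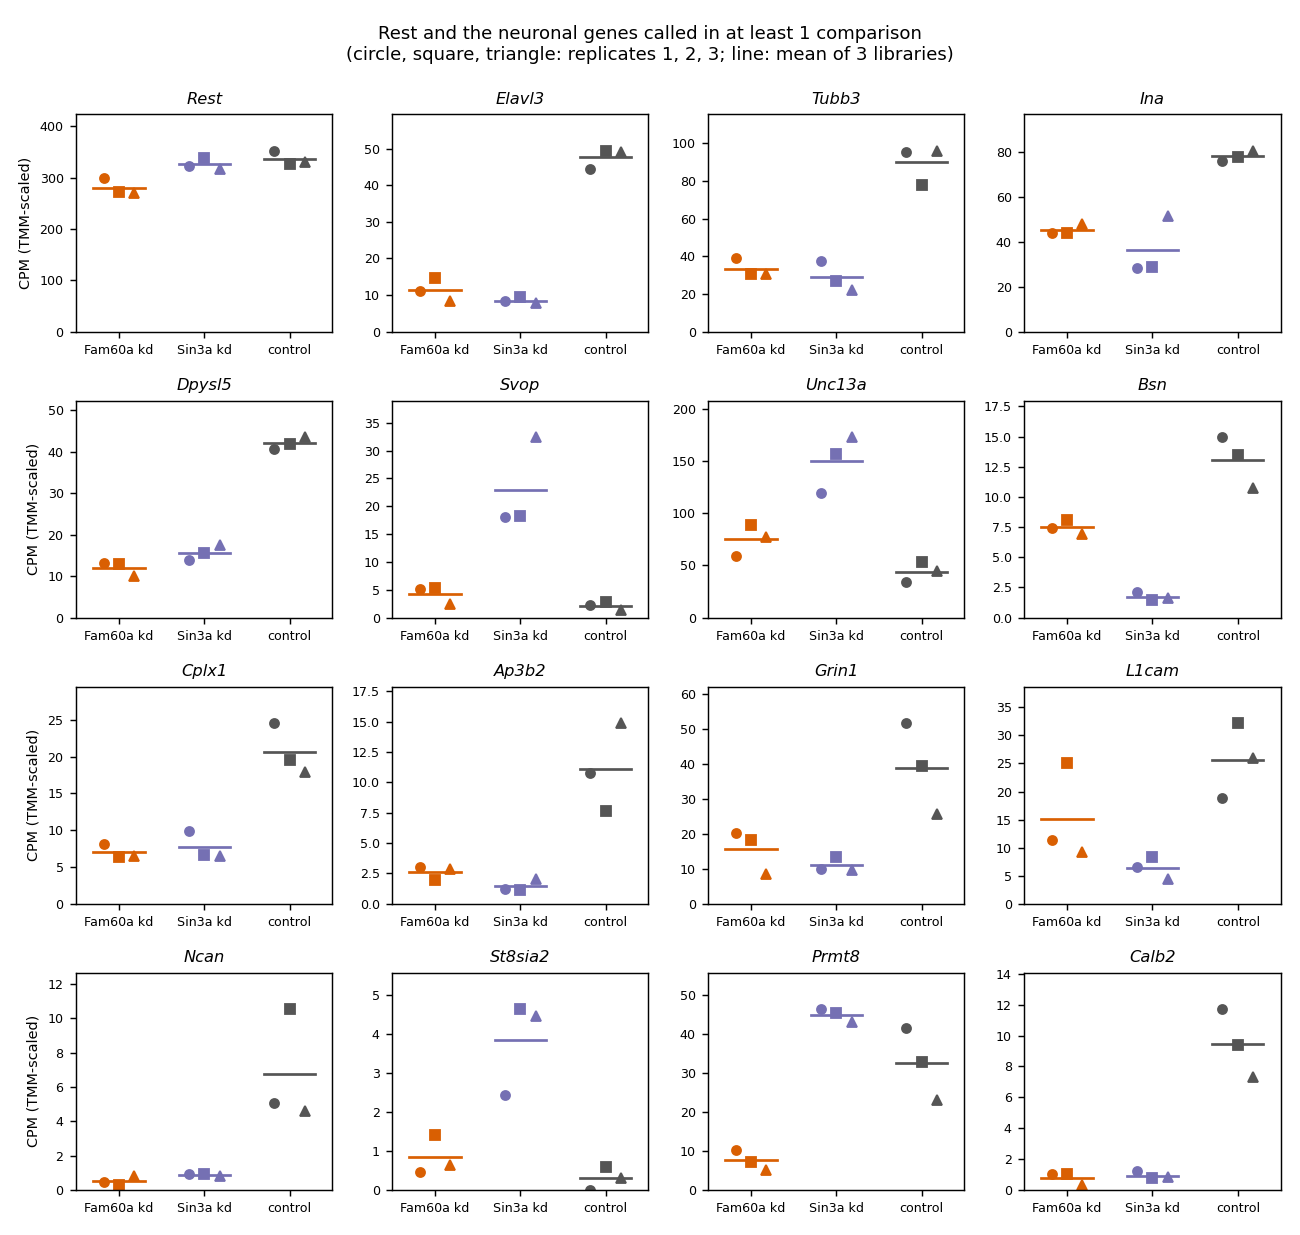
TMM-scaled CPM in each library for Rest and the 15 neuronal genes called in at least 1 comparison, with a linear axis from 0 in each panel; circles, squares and triangles are replicates 1, 2 and 3, and lines are means of 3 libraries. Elavl3, Tubb3, Dpysl5, Cplx1, Ap3b2, Ncan and Calb2 are low in both knockdowns, Prmt8 is low in the Fam60a knockdown, and Svop, Unc13a and St8sia2 are highest in the Sin3a knockdown.

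Set directly against each other, the Fam60a and Sin3a knockdowns differed in 4 of the 37 genes, 1 higher and 3 lower in the Fam60a knockdown, a share of 10.8% against 3.06% of all genes (2.18% higher and 0.878% lower). The lower ones were Prmt8 (log2 fold change of the Fam60a over the Sin3a knockdown -2.57 ± 0.30, adjusted p = 0.00658), Svop (-2.39 ± 0.40, adjusted p = 0.0195) and Unc13a (-0.99 ± 0.22, adjusted p = 0.0495). The higher one was Bsn (2.06 ± 0.29, adjusted p = 0.0107). With the replicate block 5 were called against a background of 4.65%, St8sia2 being added (-2.20 ± 0.44, adjusted p = 0.0436, and -2.12 ± 0.61 with 0.105 without it). When Sin3a knockdown replicate 3 was left out, 8 were called against 14.7% of all genes, and the added genes were Mapk8ip2, Dpysl3, Rest and Ina. With DESeq2 6 were called against 9.21%, with a GC correction 4 against 5.68%, and with that correction and the block 7 against 10.8%, while DESeq2 size factors or no filter gave 4, against 2.88% and 1.62%. Fitted on the 6 libraries of these 2 groups alone, edgeR called 0 of the 37 (8 with an unadjusted p under 0.05) and 0 of all 13843 genes tested (0.00%).

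Many of these calls ended when a single library was left out, in the edgeR fit without a block. Such a fit has fewer libraries in a group, so a lost call is not read as a trait of the library left out. Among the called genes, only the fold change of St8sia2 moved by more than 1.5 times, in the Sin3a knockdown without control replicate 2. In the Fam60a knockdown all 8 calls ended without control replicate 1, at adjusted p-values of 0.0551 to 0.106, against 0.0746% of all genes called, and 13 of the 37 then had an unadjusted p under 0.05. Without Fam60a knockdown replicate 2, Elavl3 and Dpysl5 passed, against 0.210% of all genes, and the other 6 had 0.0505 to 0.0948. Without Fam60a knockdown replicate 1, Ncan, Cplx1 and Ap3b2 were lost (0.0510 to 0.0759), and without its replicate 3, Cplx1, Tubb3 and Ap3b2 (0.0624 to 0.0766). Without control replicate 2, Prmt8, Cplx1, Tubb3 and Ap3b2 were lost (0.0521 to 0.0809), and without control replicate 3, Ap3b2 alone (0.0625).

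In the Sin3a knockdown, 9 of the 14 calls (Elavl3, Tubb3, Dpysl5, Svop, Unc13a, Bsn, Ap3b2, Ncan and Calb2) held without any single library. Without Sin3a knockdown replicate 1, Grin1, L1cam and Ina were lost (adjusted p 0.0539 to 0.0721), and without its replicate 2, St8sia2, L1cam, Cplx1 and Ina (0.0503 to 0.0695). Lost without control replicate 1 were Grin1, L1cam, Cplx1 and Ina (0.0504 to 0.0824), without control replicate 2 Grin1, L1cam and Ina (0.0715 to 0.0923), and without control replicate 3 St8sia2, L1cam and Ina (0.0578 to 0.0673). Between the knockdowns, Prmt8 passed without any single library. Unc13a was lost without each library except Sin3a knockdown replicate 3 (0.0688 to 0.174). Bsn and Svop were lost without Fam60a knockdown replicates 1 or 2 or Sin3a knockdown replicate 2, and Svop also without Sin3a knockdown replicate 1 (0.0532 to 0.0814).

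Sin3a knockdown replicate 3 departed from its group over all genes, as given above, and its values in the neuronal genes are described within that. Its deviations are from the mean of replicates 1 and 2, on the log2 scale. Vgf, Nefm and Gap43 had the highest deviations, 2.32, 2.20 and 1.77, and Elavl2, Syn1 and Elavl4 the lowest, -2.07, -1.97 and -1.54. The median over the 37 genes was 0.24, against -0.02 over all genes, and their median GC content was 55.2%, against 50.2% for all genes. Elavl2 and Elavl4 had the lowest GC content of the 37, 38.5% and 38.9%, and Vgf the highest, 64.1%, while Syn1 at 57.9% deviated downwards. The part of base composition in the single values was not tested.

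**Figure D5:**
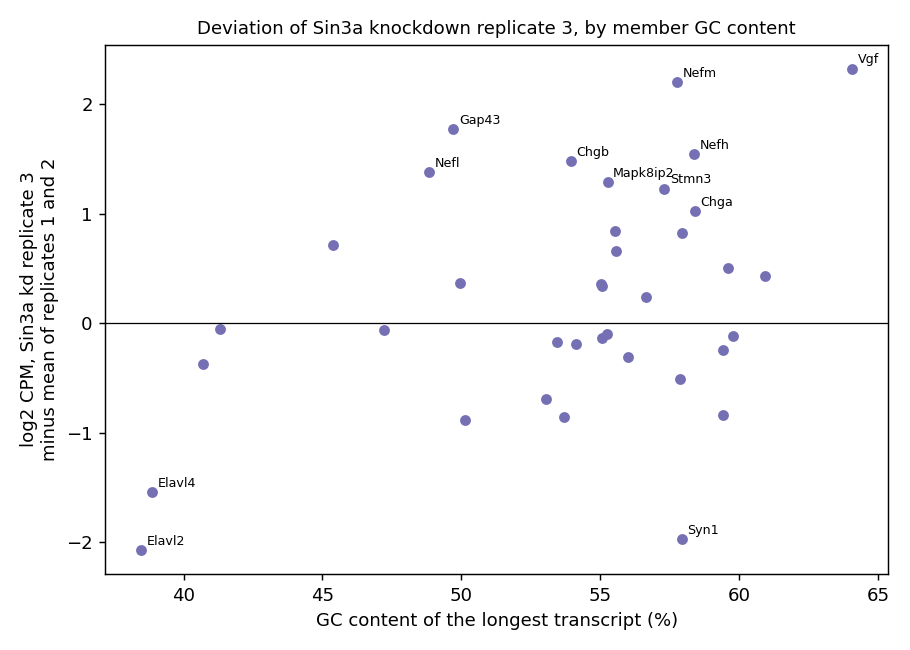
Deviation of Sin3a knockdown replicate 3 from the mean of replicates 1 and 2 (log2 CPM) against the GC content of the longest transcript, 1 point per tested neuronal gene, with genes beyond 1 in either direction named. Elavl2, Syn1 and Elavl4 lie lowest on the vertical axis, at GC contents of 38.5%, 57.9% and 38.9%, and Vgf lies highest on both axes.

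Genes that act with REST were described as a list of 22 corepressor subunits and regulators, all tested. In the Fam60a knockdown 1 fell and in the Sin3a knockdown 2 fell, shares of 4.55% and 9.09% that are close to the backgrounds of 2.92% and 10.2%. Rcor2, a CoREST paralog of stem cells, measured 144, 136 and 129 CPM in the Fam60a knockdown, 127, 130 and 170 CPM in the Sin3a knockdown and 216, 206 and 203 CPM in the controls. No knockdown library reached a control. Rcor2 thus fell in both, and its log2 fold change was -0.61 ± 0.13 (adjusted p = 0.0404) with Fam60a lowered and -0.55 ± 0.13 (adjusted p = 0.0275) with Sin3a lowered. Phf21a, the histone-reading subunit of the LSD1-CoREST complex, fell in the Sin3a knockdown (-0.60 ± 0.15, adjusted p = 0.0333). Ctdsp1, a small phosphatase that acts on REST, was higher in the Fam60a than in the Sin3a knockdown (0.69 ± 0.15, adjusted p = 0.0496). Ctdspl, a related phosphatase, passed when the replicate number was a block, with log2 fold changes of 0.78 ± 0.16 (adjusted p = 0.0382) for the Fam60a and 1.11 ± 0.16 (adjusted p = 0.00795) for the Sin3a knockdown. Once Sin3a knockdown replicate 3 was left out, 2 of the 22 rose and 4 fell in the Fam60a knockdown, and 3 rose and 3 fell with Sin3a lowered. This was 27.3% of the 22 in each, against 16.9% and 24.5% of all genes.

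A further list held 37 genes described elsewhere as REST targets, of which 36 were found and 20 could be tested. In the Fam60a knockdown edgeR called 0 of the 20 (7 with an unadjusted p under 0.05, 2 by DESeq2), and the median log2 fold change was -0.09. In the Sin3a knockdown 1 rose and 2 fell, a share of 15.0% against the background of 10.2%, with a median of 0.03. Scn3b, a beta subunit of voltage-gated sodium channels, measured 10.3, 18.1 and 10.8 CPM in the Fam60a knockdown, 54.6, 69.5 and 22.7 CPM in the Sin3a knockdown and 5.05, 8.67 and 5.21 CPM in the controls. All Sin3a knockdown libraries exceeded all others, and it rose there by 2.96 ± 0.45 on the log2 scale (adjusted p = 0.00644). Syt7, a calcium sensor of vesicle release, measured 35.8, 37.6 and 30.5 CPM in the Fam60a knockdown, 9.91, 10.2 and 4.06 CPM in the Sin3a knockdown and 36.8, 48.9 and 32.9 CPM in the controls. It fell in the Sin3a knockdown (-2.24 ± 0.32, adjusted p = 0.00453) and was higher in the Fam60a than in the Sin3a knockdown (2.05 ± 0.32, adjusted p = 0.0162). Atp2b2, a plasma membrane calcium pump, fell in the Sin3a knockdown (-2.01 ± 0.54, adjusted p = 0.0488). With the replicate block 2 of the 20 fell in the Fam60a knockdown, Atp2b2 (-2.11 ± 0.36, adjusted p = 0.0269) and Hcn3 (-0.87 ± 0.19, adjusted p = 0.0461), against 6.13% of all genes called. With that block 3 rose and 3 fell in the Sin3a knockdown, against 15.0%, and the added genes were Chrm4 (-1.64 ± 0.41, adjusted p = 0.0411), Insm1 (1.10 ± 0.28, adjusted p = 0.0448) and Nppb (1.33 ± 0.33, adjusted p = 0.0406). Scn3b then also passed between the knockdowns, at -1.86 ± 0.28 for the Fam60a over the Sin3a knockdown (adjusted p = 0.0213). Without Sin3a knockdown replicate 3, edgeR called 1 higher and 3 lower of 21 in each knockdown. That was 19.0% of the 21 each time, against 16.9% of all genes with Fam60a lowered and 24.5% with Sin3a lowered.

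A last neuronal list held 31 markers outside those above, of which 25 were tested. Of these 5 fell and 0 rose in the Fam60a knockdown, with a median log2 fold change of -0.56. In the Sin3a knockdown 7 fell and 1 rose, with a median of -0.41. These are shares of 20.0% and 32.0%, against 2.92% and 10.2% of all genes, and this list too was chosen with earlier results of these data known. Blocked by replicate number, 6 fell and 2 rose in the Fam60a knockdown, where Slc32a1 (-1.33 ± 0.27, adjusted p = 0.0401), Dpysl2 (0.90 ± 0.19, adjusted p = 0.0443) and Eno2 (1.02 ± 0.21, adjusted p = 0.0427) were added. With that block 8 fell and 1 rose in the Sin3a knockdown, Slc32a1 being added (-1.27 ± 0.29, adjusted p = 0.0309). The blocked shares were 32.0% and 36.0% in the Fam60a and Sin3a knockdowns, against 6.13% and 15.0% of all genes. Leaving out Sin3a knockdown replicate 3, 11 of 26 fell and 3 rose in the Fam60a knockdown, and 11 fell and 1 rose with Sin3a lowered, against 16.9% and 24.5% of all genes. Crmp1, a relative of Dpysl5 in axon guidance, measured 42.0, 48.2 and 42.1 CPM in the Fam60a knockdown, 45.7, 45.1 and 62.6 CPM in the Sin3a knockdown and 119, 113 and 126 CPM in the controls. Crmp1 fell without overlap, with log2 fold changes of -1.43 ± 0.16 (adjusted p = 0.00793) in the Fam60a knockdown and -1.23 ± 0.16 (adjusted p = 0.00337) in the Sin3a knockdown. Dlg4, which encodes the postsynaptic scaffold PSD-95, measured 11.8, 10.8 and 7.11 CPM in the Fam60a knockdown, 1.52, 2.04 and 1.22 CPM in the Sin3a knockdown and 16.5, 19.5 and 12.5 CPM in the controls. It fell in the Sin3a knockdown (-3.28 ± 0.35, adjusted p = 0.00192) and was higher in the Fam60a than in the Sin3a knockdown (2.58 ± 0.35, adjusted p = 0.00999).

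Neural progenitor and glial markers were checked as other cell types that could hold neuronal transcripts. Of 14 progenitor markers tested, 1 fell in the Fam60a knockdown, whereas 3 fell and 1 rose in the Sin3a knockdown. These shares were 7.14% and 28.6%, against 2.92% and 10.2% of all genes. Zic2 fell in both, with log2 fold changes of -1.53 ± 0.21 (adjusted p = 0.0108) in the Fam60a knockdown and -2.38 ± 0.23 (adjusted p = 0.00147) in the Sin3a knockdown. Pax6, a transcription factor of neuroectoderm, measured 8.01, 7.7 and 11.7 CPM in the Fam60a knockdown, 2.74, 2.41 and 1.62 CPM in the Sin3a knockdown and 16.3, 14.5 and 16.7 CPM in the controls, with no overlap between groups. It fell in the Sin3a knockdown (-2.74 ± 0.30, adjusted p = 0.00202). The block added Msi1, an RNA-binding protein of progenitors, which then fell in the Fam60a knockdown (-0.75 ± 0.13, adjusted p = 0.0269), and Zic2 was higher in the Fam60a than in the Sin3a knockdown (0.85 ± 0.17, adjusted p = 0.045). When Sin3a knockdown replicate 3 was left out, 3 progenitor markers fell in the Fam60a knockdown, and 6 fell and 2 rose with Sin3a lowered. That was 21.4% and 57.1% of them, against 16.9% and 24.5% of all genes. The 19 progenitor markers found summed to 545 to 582 CPM, 594 to 809 CPM and 615 to 674 CPM in the Fam60a knockdown, Sin3a knockdown and control libraries, and the 13 glial markers to 253 to 268 CPM, 263 to 310 CPM and 173 to 203 CPM. Of 7 glial markers tested, Olig1, a transcription factor of oligodendrocyte precursors, fell in the Fam60a knockdown (log2 fold change -2.64 ± 0.47, adjusted p = 0.0224), and Aldh1l1, an astrocyte enzyme, rose in the Sin3a knockdown (1.00 ± 0.27, adjusted p = 0.0471). Each was 14.3% of the 7, against 2.92% and 10.2% of all genes. Among the 16 pluripotency markers edgeR called 0 in the Fam60a knockdown (3 with an unadjusted p under 0.05, 2 by DESeq2). Of the same markers 2 fell in the Sin3a knockdown, Klf2 (-0.77 ± 0.14, adjusted p = 0.0106) and Fgf4 (-0.39 ± 0.10, adjusted p = 0.0335). That share of 12.5% was near the 10.2% of all genes. Gfap, which marks astrocytes, lay between 1.11 and 3.25 CPM in all libraries. The part of cells of these types in the values of the neuronal genes was not tested.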

How the data were processed

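The authors deposited, for each of 9 libraries, raw counts of reads per Ensembl gene. Per the labels, TruSeq stranded libraries were read as single ends of 50 bases. Per the submitters' processing notes, STAR 2.4.0j, Picard and featureCounts of Subread were used, and duplicate reads were gone before counting, per the file headers, which limits the counts of abundant genes. Genome build and counting annotation are not given in the sources used here. Symbols, positions and GC content (longest transcript) came from GENCODE M21 on GRCm38 by gene ID, which named 32937 genes, and promoter windows from RefSeq on GRCm38.p6. Scg3, Snap25 and Gria2 failed the low-count filter.

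With R 4.3.3 and edgeR 4.0.16, genes were kept by filterByExpr, libraries scaled by TMM and all 9 fitted together, with a mean per group and robust quasi-likelihood tests; an adjusted p is from this fit unless another fit is named beside it (the block, a library left out, DESeq2 1.42.0), and is Benjamini-Hochberg adjusted over all genes that fit tested. The fit was tested on simulated counts. The SE of a log2 fold change is its size divided by the square root of the test's F. The common biological coefficient of variation was 0.25. Floors cover counting error only.

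Replicate numbers paired the libraries: deviations from group means correlated at r = 0.178 to 0.622 in 9 same-numbered pairs and -0.448 to 0.113 in 18 others, across genes. The labels do not say why. Blocked values stand beside a gene where they change its call, and for the endoderm markers as counts.

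Values per library are given for Rest and for genes called in any comparison with or without the block, and of other lists for up to 4 called genes per comparison. A gene that this rule named among the other lists is not reported here. Members and lists were chosen with earlier results of these data known. Alternatives were other scaling, no filter, GC correction, the block, DESeq2, each pair of groups alone and leaving out each library. For the lists of other genes, the block, DESeq2 and leaving out Sin3a knockdown replicate 3 were added after seeing the data.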

Additional observations from a re-analysis of the deposited data

Results flagged for a closer look

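The effects of the Fam60a and Sin3a knockdowns, relative to the same controls, differed in 4 of the neuronal genes by the direct edgeR test. Prmt8 had a log2 difference of -2.57 (Fam60a over Sin3a knockdown), and it lay at 5.22 to 10.3 CPM in the Fam60a knockdown and 43.1 to 46.5 CPM in the Sin3a knockdown. Svop had -2.39, at 2.53 to 5.26 CPM and 18.1 to 32.5 CPM in the same order, and Unc13a had -0.99, at 59.1 to 88.2 CPM and 119 to 173 CPM. Bsn had 2.06, at 6.96 to 8.08 CPM in the Fam60a knockdown and 1.49 to 2.13 CPM in the Sin3a knockdown. In all 4 the 3 libraries of each knockdown did not overlap, as in 11.6% of all genes with the Fam60a knockdown below and 13.9% with it above.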

How the results depend on the processing

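The count of the 37 genes called in the Fam60a knockdown against control depended on the fit. It was 8 in the fit reported, with DESeq2 size factors and without a filter, 9 with a GC correction, 12 with the replicate block, 18 with GC correction and replicate block, 18 on the 6 libraries of both groups alone and 14 with the DESeq2 Wald test. Leaving out each library gave 0 to 21. The share of all genes called moved with the fit too. It was 2.92% in the fit reported, 2.90% with DESeq2 size factors, 1.71% without a filter and 5.03% with a GC correction. The block gave 6.13%, block and GC correction 11.7%, the 6 libraries alone 12.8% and the DESeq2 Wald test 8.16%. Without control replicate 1 (0 of the 37) it was 0.0746%, and without Sin3a knockdown replicate 3 (21 of the 37) it was 16.9%. In the Sin3a knockdown against control the reported 14 became 13 to 20 under those alternatives (17 with the replicate block), and leaving out each library gave 10 to 18. There the share of all genes was 10.2% in the fit reported and 5.25% to 23.0% under those alternatives (15.0% with the block). Without Sin3a knockdown replicate 3 it was 24.5%. Between the knockdowns the reported 4 became 5 with the replicate block, 7 with GC correction and replicate block, 6 with DESeq2 and 0 on the 6 libraries alone (8 with an unadjusted p under 0.05), and leaving out each library gave 1 to 8. The shares of all genes were 3.06% as reported, then 4.65%, 10.8%, 9.21% and 0.00% in that order, and 14.7% without Sin3a knockdown replicate 3. Rest and the genes called in any comparison with or without the block, 20 in all, were followed singly through these alternatives. No fold change of theirs changed sign in a comparison in which the gene was called. Among pairs of these 20 genes and an alternative, 25, 18 and 19 ended a call and 28, 9 and 6 gained one in the Fam60a, Sin3a and direct comparisons. The cause of these changes was not tested. Depth limits St8sia2, Ncan, Calb2, Ap3b2 and Bsn, whose lowest group counts were 6, 10, 14, 19 and 26 reads, and Gria2, Snap25 and Scg3 could not be tested. The control libraries were identified by elimination.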
